A study of Mus musculus with 75 samples.

Results

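The Lepr window is a stretch of 200 kb on mouse chromosome 4 (build mm9) with the leptin receptor gene Lepr and sequence upstream of it. It was set by position, opening 2.45 kb before its first region, and its members were all deposited regions that overlap it. There were 25 of the 126368 H3K27ac regions and 7 of the 48634 ATAC regions, so 32 regions of 175002 in all. They are called here H1 to H25 and A1 to A7, numbered from the low to the high coordinate, from H1 at chr4:101302447-101304485 on. No annotation of mm9 was used here, so the regions are given by position and are not assigned to a promoter, exon or intron.

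Lepr encodes the receptor of leptin, a hormone that fat tissue releases in proportion to its stores. The long receptor form, LepRb, signals through JAK2 and STAT3, and in the hypothalamus it marks neurons that control feeding and energy use. H3K27ac is an acetylation of histone H3 found at active promoters and enhancers, and ATAC-seq reads open chromatin by where a transposase can insert into DNA.

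The nuclei came from LepRcre/+; SUN1-sfGFP/+ mice, in which Cre made from the Lepr locus switches on a green tag of the nuclear envelope. Pooled hypothalami were sorted into GFP-positive nuclei, labelled as LepRb positive, and GFP-negative nuclei, labelled as negative. All groups carry both alleles. The 4 treatments were free feeding (Fed, labelled with saline), a 36 h fast with 3 saline injections (Fast), a 36 h fast with leptin at 5 mg/kg once at 34 h (Lep2, labelled as 2 hours of leptin), and a 36 h fast with leptin at 5 mg/kg at 12, 24 and 34 h (Lep24, labelled as 24 hours). Mice had been grown on a standard diet for at least 2 months, and the labels used here give no age or sex for a library. Each assay had 2 libraries per treatment and sort, 8 per sort and 16 in all. Cre tags a nucleus for good once it has acted, and Cre is made from the locus studied here. A difference between the sorts at Lepr is thus a check of the sort and is not independent of it. In sorted bulk nuclei, fewer nuclei with a mark and less of the mark per nucleus cannot be told apart. Nothing in the labels says that replicates were separate pools of mice, so p-values measure the spread between these libraries, which may be technical.

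Values are normalized signal as the authors deposited it. Sequencing depth is unknown. Summed over all regions, normalized signal ran from 9247619 to 10963342 in the H3K27ac libraries, and in the ATAC libraries from 1232939 to 1415507. A set of 6 H3K27ac libraries stood apart, namely the first replicates of Fed, Lep2 and Lep24, GFP-positive and GFP-negative alike. The share of signal on mitochondrial DNA was 0.075% to 0.238% in these 6 and 0.0102% to 0.0384% in the other 10 libraries, and the 3 GFP-negative libraries of the set had the highest total signal, 10327242 or more. The main sort and treatment results for H3K27ac are given with all libraries and without these 6. A region is said to have risen or fallen when the limma adjusted p over all tested regions of the assay was under 0.05, and every fold change was taken on log2(signal + 1), which understates changes of low regions.

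The promoter sequences of Lepr and of its upstream neighbour are shown as context for the acetylated and open regions. In the RefSeq annotation of the later build GRCm38.p6, the gene order is Ak4, Dnajc6, Leprot, Lepr, Pramel17, and Leprot, which encodes a small membrane protein that affects how much leptin receptor reaches the cell surface, is the nearest gene before Lepr. RefSeq gives 2 promoter entries for Lepr, at chr4:101717157-101717456 and chr4:101717656-101717955, and 1 for Leprot, at chr4:101647533-101647832, all on the plus strand of GRCm38.p6. These coordinates are of another build and were not placed on the mm9 regions. Capitals mark GGGCGG, the core letters that Sp-family factors bind.
Lepr start 1: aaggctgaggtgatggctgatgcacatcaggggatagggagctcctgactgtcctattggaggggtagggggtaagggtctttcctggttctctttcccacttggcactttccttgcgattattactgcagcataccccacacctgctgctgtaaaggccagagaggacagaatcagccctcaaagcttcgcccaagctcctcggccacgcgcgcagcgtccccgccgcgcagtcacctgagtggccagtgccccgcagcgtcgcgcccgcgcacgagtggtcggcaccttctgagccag
Lepr start 2: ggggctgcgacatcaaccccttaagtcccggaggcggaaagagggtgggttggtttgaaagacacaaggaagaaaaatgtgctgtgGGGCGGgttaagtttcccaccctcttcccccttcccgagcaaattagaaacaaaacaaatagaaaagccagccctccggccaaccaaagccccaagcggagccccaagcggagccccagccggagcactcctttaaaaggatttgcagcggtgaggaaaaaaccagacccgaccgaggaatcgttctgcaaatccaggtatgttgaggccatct
Leprot start 1: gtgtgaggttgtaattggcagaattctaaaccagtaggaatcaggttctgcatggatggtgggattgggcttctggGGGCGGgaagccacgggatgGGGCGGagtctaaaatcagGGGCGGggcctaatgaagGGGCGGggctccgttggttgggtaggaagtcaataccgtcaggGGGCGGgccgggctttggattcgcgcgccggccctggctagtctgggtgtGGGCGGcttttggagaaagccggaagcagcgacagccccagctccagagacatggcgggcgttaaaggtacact

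The first Lepr window of 300 bases held 18 CpG sites and the second 13, and the Leprot window held 18, against a median of 7 over all 32851 promoter windows. GGGCGG, searched on both strands, occurred 6 times in the Leprot window, once in the second Lepr window and in 35.7% of all windows. The letters TTCNNNGAA, the form that STAT factors bind, were in none of the 3 windows and in 8.3% of all windows, and no match says only that these letters are not in these bases.

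Along the window, the H3K27ac regions covered 89 kb, or 44.5%, and 15 of the 25 touched the next one. They filled the first part almost without a break and ended with H25, at chr4:101438757-101440511. The 7 ATAC regions covered 5709 bp. Regions that touch are pieces of one acetylated stretch and are not independent of each other.

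**Figure D1:**
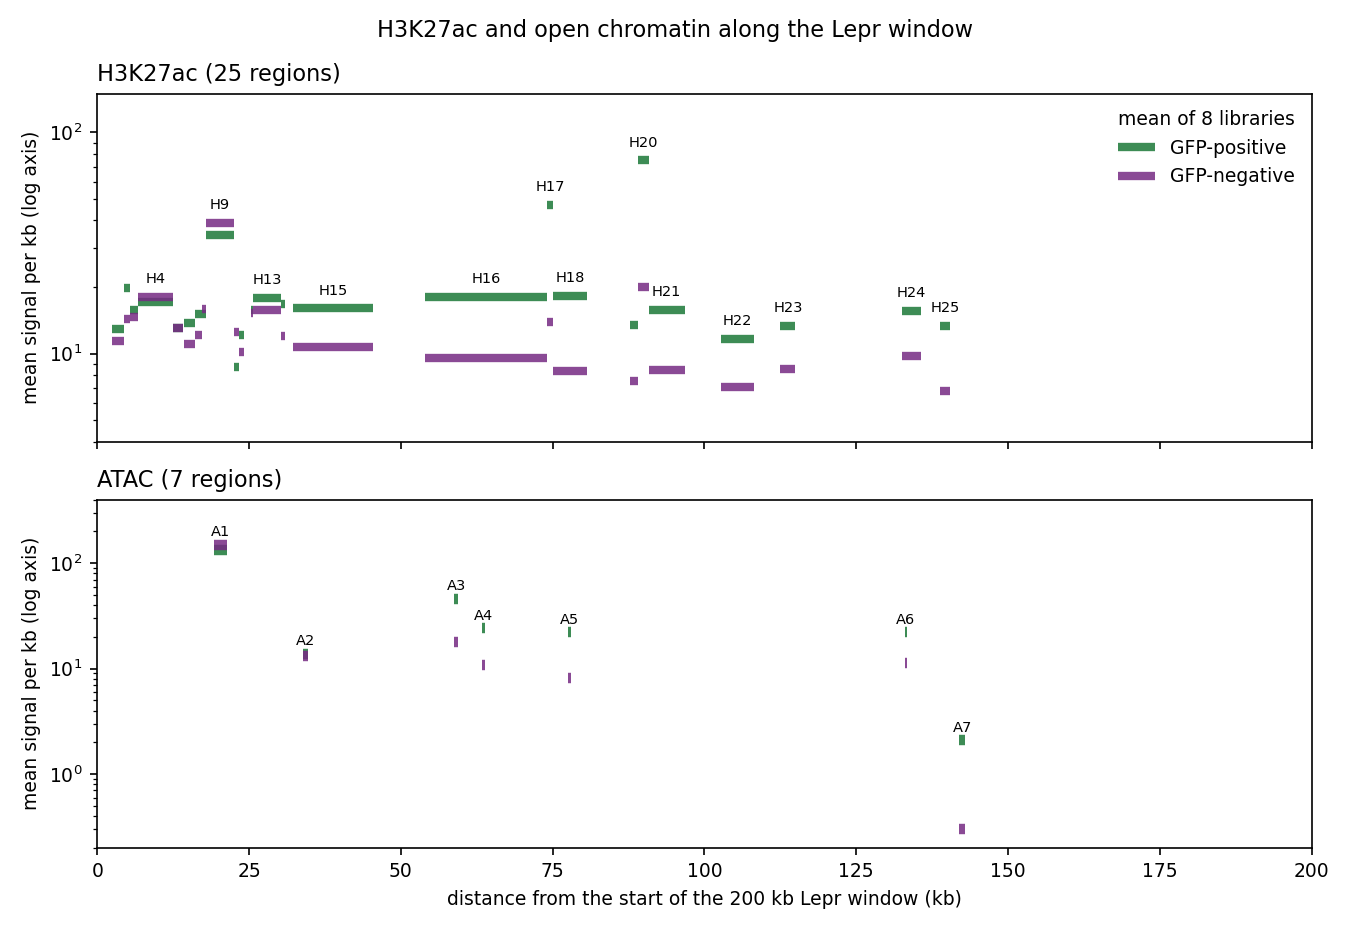
Mean normalized signal per kb (log axis) of each H3K27ac region (upper panel) and ATAC region (lower panel) against the distance from the start of the window in kb, for GFP-positive (green) and GFP-negative (purple) nuclei, means of 8 libraries. H20 and H17 stand out in GFP-positive nuclei, at 74.7 and 47.2 per kb, and A1 has the highest ATAC signal per kb in both sorts.

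GFP-positive nuclei carried more H3K27ac than GFP-negative nuclei over much of the later stretch of the window, H15 to H25, and the gap was largest at a pair of short regions, H20 and H17. Over all treatments 7 of the 25 H3K27ac regions, or 28%, rose in GFP-positive nuclei and none fell. Of all 113725 tested regions, 9.22% were called in either direction, 3.26% higher and 5.97% lower. The summed signal of the window was 1530 to 1810 in GFP-positive libraries and 996 to 1310 in GFP-negative libraries, without overlap.

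H20 (chr4:101388996-101390831, 1836 bp) showed the strongest gain. In GFP-positive nuclei its signal was 93.6 and 131.4 in Fed, 194 and 157.2 in Fast, 72.2 and 180.2 in Lep2, and 97.8 and 171.2 in Lep24. GFP-negative nuclei had 30.2 and 46.6 in Fed, 38.3 and 45.2 in Fast, 22.1 and 35.8 in Lep2, and 21.1 and 56.2 in Lep24. Every GFP-positive library lay above every GFP-negative library, which held for 0.674% of all tested regions. The mean was 137 ± 45.3 in GFP-positive nuclei and 36.9 ± 12.3 in GFP-negative nuclei (SD, n = 8 each), a 3.63-fold difference (log2 1.86, SE 0.25, limma adjusted p = 0.00143). Among the 113725 tested regions this was the largest log2 gain in GFP-positive nuclei, and its rank stayed between 1 and 6 with any single library left out. It ranked 23 with a pseudocount of 0.1, and 11 both in the set of 6 alone and in the other 10 alone.

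H17 (chr4:101374106-101375083, 978 bp) was the other short region with a large gain and ranked 3 in the same order. Its signal in GFP-positive nuclei was 25.8 and 55 in Fed, 70.8 and 56.2 in Fast, 22.9 and 53.2 in Lep2, and 36.1 and 49.6 in Lep24. In GFP-negative nuclei it was 17 and 15.9 in Fed, 16.9 and 17.1 in Fast, 17.3 and 10.2 in Lep2, and 9.5 and 4.5 in Lep24. The sorts did not overlap, and the lowest GFP-positive values were those of the set of 6. The fold difference was 3.26 (log2 1.71, SE 0.23, limma adjusted p = 0.0015).

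H16 (chr4:101353935-101374105) was the longest region at 20171 bp and held the most H3K27ac signal of the window. It ranged from 314.2 to 419.1 with a median of 364 in GFP-positive libraries, and from 105.5 to 317.1 with a median of 133 in GFP-negative libraries. Only the highest GFP-negative library, Lep2 replicate 1, reached the GFP-positive range. H16 rose 2.09-fold (log2 1.07, SE 0.23, limma adjusted p = 0.0123).

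H18 (chr4:101375084-101380705), which touches H17, ranged from 88 to 136.7 with a median of 96.6 in GFP-positive libraries and from 22.7 to 80.4 with a median of 40.2 in GFP-negative libraries. The sorts did not overlap, and H18 rose 2.32-fold (log2 1.21, SE 0.21, limma adjusted p = 0.0045). H21 (chr4:101390832-101396742), which follows H20 without a gap, ranged from 77.7 to 105.9 with a median of 93.1 in GFP-positive libraries and from 17.1 to 88.3 with a median of 43.9 in GFP-negative libraries. Its sorts overlapped through GFP-negative Lep2 replicate 1 alone, and H21 rose by log2 1.08 (SE 0.24, limma adjusted p = 0.0139).

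The last 2 regions called were small. H25 ranged from 15.4 to 39.2 with a median of 21.2 in GFP-positive libraries and from 5.9 to 21.6 with a median of 10.3 in GFP-negative libraries (log2 0.95, SE 0.22, limma adjusted p = 0.0173). H19 (chr4:101387774-101388995), just before H20, ranged from 11.6 to 26.4 with a median of 14.9 in GFP-positive libraries and from 2.9 to 15.8 with a median of 10.3 in GFP-negative libraries (log2 0.88, SE 0.26, limma adjusted p = 0.0485). Both overlapped between the sorts, and H19 fell short of the threshold in 14 of the 16 fits that left out 1 library, with log2 values of 0.66 to 1.1.

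The other 4 regions of this stretch did not pass. Their log2 differences were 0.72 at H15 (chr4:101332183-101345456, adjusted p = 0.0568), 0.89 at H22 (adjusted p = 0.0624), 0.81 at H23 (adjusted p = 0.139) and 0.78 at H24 (adjusted p = 0.0936), all by limma. All 4 rose when a term for the set of 6 was added to the fit, at the same log2 values and with limma adjusted p of 5.02e-05 at H15, 0.000875 at H22, 0.0145 at H23 and 0.00419 at H24. That fit called 26.6% of all tested regions. Its term shifts both sorts by the same amount, so the log2 values average over the sets. Within the 6 libraries alone they were 0.04 at H15, -0.09 at H22, -0.13 at H23 and -0.24 at H24. Within the other 10 they were 1.13, 1.48, 1.37 and 1.39 in the same order.

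**Figure D2:**
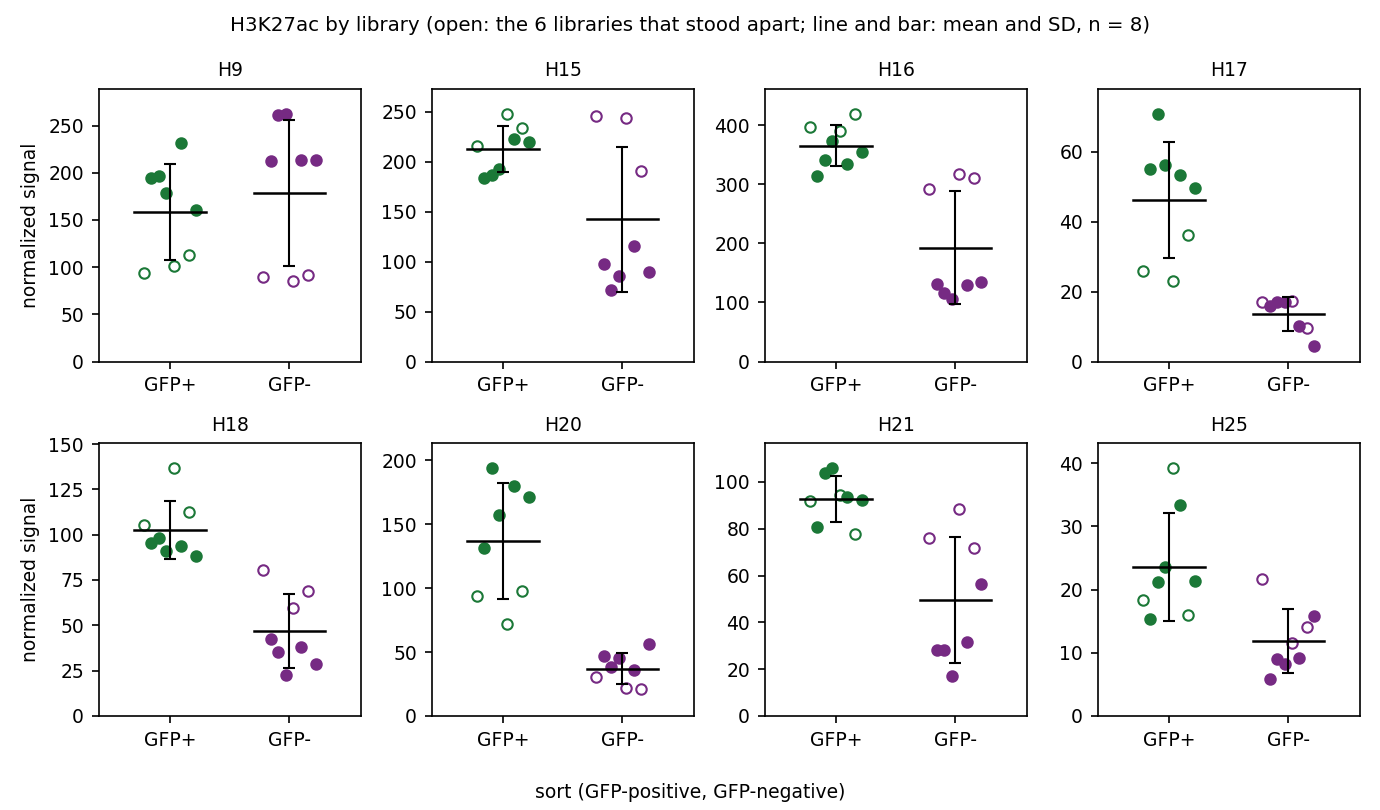
Normalized H3K27ac signal in each library for 8 regions, with GFP-positive nuclei on the left and GFP-negative nuclei on the right of each panel. Points are libraries, open points the set of 6, and the line and bar give mean and SD (n = 8). At H15, H16 and H21 the open GFP-negative points sit near the GFP-positive ones, while at H20 they sit at 21.1 to 30.2, the low end of their sort.

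The values of the set of 6 are given beside those of the other libraries. H20 averaged 87.9 in the 3 libraries of the set and 167 in the other 5 in GFP-positive nuclei, and 24.5 in the 3 of the set and 44.4 in the other 5 in GFP-negative nuclei. H16 averaged 402 in the set and 344 in the others in GFP-positive nuclei, and 307 in the set and 123 in the others in GFP-negative nuclei. Summed over H15 to H25, GFP-positive signal was 1110 to 1140 in the 3 libraries of the set and 1020 to 1210 in the other 5. In GFP-negative nuclei the sum was 842 to 928 in the 3 libraries of the set and 370 to 464 in the other 5. Over H1 to H14 the libraries of the set were lower in both sorts: they averaged 433 ± 12.3 and the other 5 averaged 560 ± 35.3 in GFP-positive nuclei, and they averaged 366 ± 30.9 and the other 5 averaged 595 ± 40.2 in GFP-negative nuclei (SD, n = 3 and 5). The part of the mitochondrial signal in this was not tested.

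Within the 10 other libraries alone, limma called 13 regions: all 11 from H15 to H25 rose, and H9 and H10 fell. This fit called 32.4% of all tested regions, 16.4% higher and 16% lower. There the log2 difference was 2.17 at H17, 1.89 at H20, 1.63 at H21, 1.49 at H18, 1.48 at H22, 1.47 at H16 and 1.13 at H15. H9 was lower by log2 -0.28 (adjusted p = 0.00924) and H10 by log2 -0.76 (adjusted p = 0.0326). Within the 6 libraries alone, H20 (log2 1.81, limma adjusted p = 2.95e-06), H18 (log2 0.76, adjusted p = 0.0108) and H16 (log2 0.39, adjusted p = 0.0247) rose, in a fit that called 4.1% of all tested regions, with 2.06% higher. The others of the stretch gave 0.93 at H17 (adjusted p = 0.115), 0.62 at H19, 0.55 at H25, 0.16 at H21, 0.04 at H15, -0.09 at H22, -0.13 at H23 and -0.24 at H24. These fits, with treatment and sort as additive terms, left 5 and 2 residual degrees of freedom before moderation and differ in spread from the fit of all 16 libraries, so their counts are not like for like. Whether the sort difference itself differed between the sets was not tested.

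**Figure D3:**
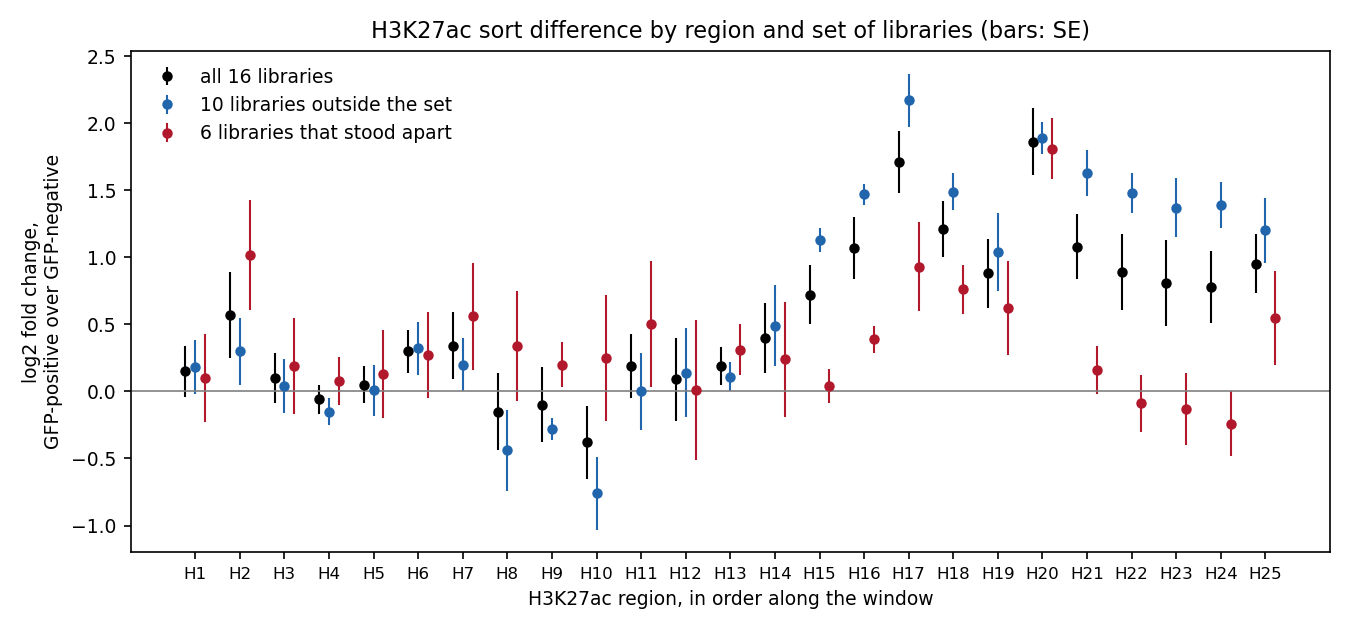
Log2 fold change of GFP-positive over GFP-negative H3K27ac for each region in order along the window, with standard errors, from all 16 libraries (black), the 10 libraries outside the set (blue) and the 6 that stood apart (red). At H20 the estimates were 1.86, 1.89 and 1.81, whereas at H15 they were 0.72, 1.13 and 0.04.

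The early stretch, H1 to H14, showed no sort difference past the threshold in the fit of all 16 libraries. Its summed signal was 513 ± 71.1 in GFP-positive libraries and 509 ± 123 in GFP-negative libraries (SD, n = 8 each), and log2 differences ran from -0.38 at H10 to 0.57 at H2. The strongest region there was H9 (chr4:101317847-101322444), which ranged from 94 to 231.7 with a median of 170 in GFP-positive libraries and from 85.3 to 262.5 with a median of 213 in GFP-negative libraries. The sorts overlapped over nearly their whole ranges (log2 -0.10, 95% interval -0.71 to 0.51). By limma the log2 difference was 0.20 within the set of 6 (adjusted p = 0.63). It was -0.28 within the other 10 (adjusted p = 0.00924), where the sorts overlapped. In the set of 6, H9 was 94 to 112.4 in GFP-positive and 85.3 to 92 in GFP-negative libraries. In the other 10 it was 160.4 to 231.7 in GFP-positive and 212.5 to 262.5 in GFP-negative libraries. Per kb, H9 had 34.5 in GFP-positive nuclei and 38.9 in GFP-negative nuclei, the highest H3K27ac level of the 25 regions in GFP-negative nuclei.

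Open chromatin was concentrated in a single strong region shared by the sorts, and most of the weaker regions were more open in GFP-positive nuclei. Of the 7 ATAC regions, 6 were tested, and 4 of these, or 66.7%, rose in GFP-positive nuclei, while none fell. Among all 43767 tested ATAC regions, 9.8% were called in either direction, 4.66% higher and 5.13% lower. A7 (chr4:101441980-101442978) was below the signal floor for testing, at 0 to 4 in GFP-positive libraries and 0 to 2.4 in GFP-negative libraries. That floor, 5.44 in ATAC, is on the mean of all 16 libraries. A4, A5 and A6 averaged 9.96, 9.02 and 9.06 in GFP-positive libraries and 4.44, 3.32 and 4.61 in GFP-negative libraries. They passed the floor only through their GFP-positive signal. Their calls, which the 66.7% includes, are thus not independent of that filter.

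A1 (chr4:101319187-101321301) lies within H9 and held most of the open chromatin of the window. It ranged from 243.9 to 350.6 with a median of 270 in GFP-positive libraries and from 264.2 to 388.1 with a median of 312 in GFP-negative libraries. The ranges overlapped, and the log2 difference of -0.16 (95% interval -0.39 to 0.07, limma adjusted p = 0.386) did not pass. A1 took 80% of the window's ATAC signal in GFP-positive libraries and 90.2% in GFP-negative libraries on average. Without it, the summed signal of A2 to A7 was 70.4 ± 13.5 in GFP-positive libraries and 33.8 ± 2.73 in GFP-negative libraries (SD, n = 8 each). A3 made the largest part of this gap, with a GFP-positive mean of 30.4 against 11.9, while A2 had 9.86 against 9.25. The sum also holds A4, A5 and A6, which passed the floor only through their GFP-positive signal. It was not tested, so it does not show that the weaker regions differ as a group.

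A3 (chr4:101358806-101359463), inside the long region H16, had the smallest p of the window. Its signal in GFP-positive nuclei was 31.1 and 41.6 in Fed, 24.6 and 35 in Fast, 29.2 and 31 in Lep2, and 31.9 and 18.4 in Lep24. GFP-negative nuclei had 10.3 and 10.8 in Fed, 11.6 and 11.9 in Fast, 11.8 and 14.3 in Lep2, and 11.1 and 13.1 in Lep24. The sorts did not overlap, which held for 0.674% of tested ATAC regions, and A3 rose 2.39-fold (log2 1.26, SE 0.16, limma adjusted p = 6.06e-05).

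A5 (chr4:101377602-101378010), inside H18, ranged from 6.5 to 12.5 with a median of 8.55 in GFP-positive libraries and from 2.4 to 6 with a median of 2.7 in GFP-negative libraries. Its sorts did not overlap either, and it rose 2.36-fold (log2 1.24, SE 0.28, limma adjusted p = 0.00625). A4 (chr4:101363375-101363785), also inside H16, ranged from 3.8 to 16.4 with a median of 10.2 in GFP-positive libraries and from 2.5 to 6.6 with a median of 4.65 in GFP-negative libraries (log2 0.98, SE 0.29, limma adjusted p = 0.0325). A6 (chr4:101432980-101433389), inside H24, ranged from 5.4 to 11.6 with a median of 9.45 in GFP-positive libraries and from 2.9 to 6.7 with a median of 4.55 in GFP-negative libraries (log2 0.85, SE 0.27, limma adjusted p = 0.0436). The sorts overlapped at A4 and A6, and leaving out 1 library ended the call at A4 in 11 of 16 fits and at A6 in 12 of 16. A2, inside H15, differed by log2 0.02 (95% interval -0.51 to 0.55).

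**Figure D4:**
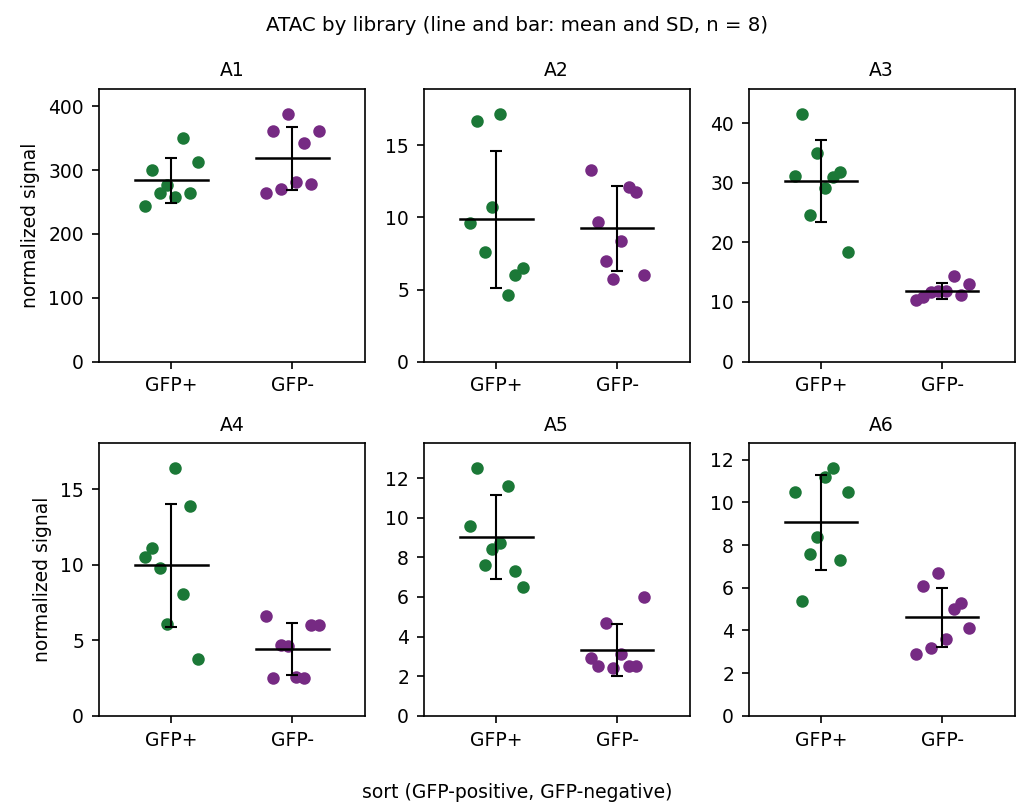
Normalized ATAC signal in each library for the 6 tested regions, with GFP-positive nuclei on the left and GFP-negative nuclei on the right of each panel, and mean and SD (n = 8). All GFP-positive points lie above all GFP-negative points at A3 and A5, and the points overlap at A1, A2, A4 and A6.

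The assays met at 5 of the 25 H3K27ac regions, which held 6 of the 7 ATAC regions at an overlap of at least 1 bp. H20 and H17, the H3K27ac regions with the largest sort gains, overlapped no region of the ATAC table. A1 and H9, which overlap, both missed the threshold between the sorts, apart from the lower H9 in the 10 libraries outside the set.

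The regions on both sides of the window are given for comparison, with no test of the window against them. Its median log2 difference between the sorts was 0.40 over 25 H3K27ac regions, against 0.09 over 50 tested regions in the 500 kb before it, -0.18 over 33 in the 500 kb after it and 0.03 over all tested regions. By limma, 0 regions were higher and 3 lower in GFP-positive nuclei before the window, and 1 was higher and 9 lower after it. For ATAC the median was 0.91 in the window, against 0.20 before it, -0.28 after it and -0.01 over all tested regions, with 3 of 17 tested regions higher before the window and 1 of 8 lower after it. The 0.91 lies between the values of A6 and A4, which passed the signal floor only through their GFP-positive signal. The nearest H3K27ac region before the window, at chr4:101297920-101299201, averaged 22.5 in GFP-positive nuclei and 15.4 in GFP-negative nuclei (log2 0.49, adjusted p = 0.235 by limma). The nearest after it, at chr4:101533698-101534368, averaged 16.1 in GFP-positive nuclei and 9.52 in GFP-negative nuclei (log2 0.66, adjusted p = 0.104 by limma).

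The authors' deposited table gives its own log2 fold changes for the same sort comparison. In it, 19 of the 25 H3K27ac regions carry an FDR and 8 had one under 0.05, all higher in GFP-positive nuclei, and the authors' deposited table puts H20 at log2 1.85 with an FDR of 3.22e-16. The 8 include H15 (authors' FDR 0.0361), H22 (0.0113) and H24 (0.0063), which did not pass in the fit of all 16 libraries. Of the regions called in that fit, H25 had an authors' FDR of 0.249 and H19 had none. Over the whole genome, the authors' deposited table has 13389 H3K27ac regions under 0.05, or 15.4% of those with an FDR. For ATAC, the authors' deposited table gives an FDR for 3 of the 7 regions and has it under 0.05 at 1, A3, with log2 1.54 and an FDR of 0.00409, against 140 regions, or 0.408%, over the whole genome. A4, A5 and A6, called in the fit of all 16 libraries, have no FDR there.

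The sort difference at the strongest regions was seen in each treatment, while no treatment changed any region of the window past the threshold in the fit of all 16 libraries. The mean of H3K27ac was higher in GFP-positive nuclei at all 11 regions from H15 to H25 in each of the 4 treatments. That stretch was marked off with these sort differences known, so the count is not independent of them. Over all 25 regions the mean was higher at 19 in Fed, 19 in Fast, 21 in Lep2 and 20 in Lep24. The share of all tested regions with a higher mean is not given here. At H20 the log2 difference between sorts was 1.54 in Fed, 2.04 in Fast, 1.98 in Lep2 and 1.88 in Lep24 (SE 0.50 each). At H17 it was 1.15 in Fed, 1.83 in Fast, 1.33 in Lep2 and 2.51 in Lep24 (SE 0.46 each), and at A3 it was 1.68 in Fed, 1.25 in Fast, 1.15 in Lep2 and 0.95 in Lep24 (SE 0.32 each). With 2 libraries per group, none of these passed within a single treatment by limma. The smallest adjusted p was 0.065 for H3K27ac, at H21 in Fast (log2 2.21, SE 0.47), and 0.0677 for ATAC, at A3 in Fed. At an unadjusted p under 0.05, limma had 3 H3K27ac regions in Fed, 10 in Fast, 4 in Lep2 and 3 in Lep24, and 3 ATAC regions in Fed, 1 in Fast, 4 in Lep2 and 1 in Lep24. The same held for 7.64% of all tested H3K27ac regions in Fed, 13.6% in Fast, 6.86% in Lep2 and 7.79% in Lep24, and for 8.7%, 11.6%, 11.8% and 6.21% of ATAC regions in that order. Over all tested regions, 117 H3K27ac regions (0.103%) were called in Fast and 0 in the other 3 treatments, and 7 ATAC regions (0.016%) were called in Fed, 24 (0.0548%) in Fast, 87 (0.199%) in Lep2 and 0 in Lep24.

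Fasting was compared with feeding, and each leptin schedule with the fast, within each sort. By limma 0 regions of the window and 0 of all tested regions (0%) were called in any of these comparisons or in the difference of a comparison between the sorts. The leptin comparisons of one sort share the Fast libraries. At an unadjusted p under 0.05, GFP-positive nuclei had 0 H3K27ac regions of the window for Fast against Fed, 1 for Lep2 against Fast and 0 for Lep24 against Fast. GFP-negative nuclei had 3, 3 and 4 in the same order, the differences between sorts 0, 0 and 1, and ATAC 0 throughout. Over all tested H3K27ac regions the shares in that order were 1.91%, 3.27% and 2.65% in GFP-positive nuclei, 5.98%, 4.63% and 6.05% in GFP-negative nuclei, and 2.36%, 2.36% and 2.17% for the differences, and for ATAC they ran from 1.49% to 7.85%. The Fed, Lep2 and Lep24 groups each hold 1 H3K27ac library of the set of 6 and Fast holds none, so each H3K27ac treatment comparison was also made in the other 10 libraries alone, with 1 library in each of those groups that was assumed to vary like the Fast libraries. There limma called 2 regions of the window, H17 and H21, for Lep24 against Fast in GFP-negative nuclei, a comparison in which 0.751% of all tested regions were called, and 0 in each of the other comparisons and differences.

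At H20 in GFP-positive nuclei, the log2 change was 0.65 for Fast over Fed (95% interval -0.42 to 1.72), -0.61 for Lep2 over Fast (95% interval -1.68 to 0.46) and -0.43 for Lep24 over Fast (95% interval -1.50 to 0.64). The lower GFP-positive library of Fed, Lep2 and Lep24, at 93.6, 72.2 and 97.8, belongs to the set of 6 each time. In the other 10 libraries the changes at H20 were 0.41, 0.04 and -0.03 in the same order (adjusted p = 0.901, 0.995 and 0.993 by limma). At A3 in GFP-positive nuclei, the changes were -0.28 (95% interval -0.95 to 0.38), 0.03 (95% interval -0.63 to 0.70) and -0.26 (95% interval -0.93 to 0.40) in the same order. Across the regions of the window the median reach of these intervals on the log2 scale, to each side, was 1.02 in H3K27ac and 1.07 in ATAC, so with 2 libraries per group an estimate near 0 leaves room for a change of about 2-fold either way.

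The members with the smallest unadjusted p in each comparison are given with their values. In GFP-positive nuclei, H17 for Fast against Fed had 70.8 and 56.2 in Fast, against 25.8 and 55 in Fed (log2 0.73, SE 0.46, limma adjusted p = 0.985). The value of 25.8 is from a library of the set of 6, and the change was log2 0.19 (SE 0.33) in the other 10. H3 (chr4:101305433-101306785) had 14.3 and 14.6 in Lep2, against 24.7 and 30.4 in Fast (log2 -0.88, SE 0.38, limma adjusted p = 0.923), and 16.8 and 21.3 in Lep24 (log2 -0.51, SE 0.38, limma adjusted p = 0.942). In the other 10 libraries the changes at H3 were -0.86 and -0.35 on the log2 scale. Both H3 pairs lay below the Fast pair, and the H17 pairs did not overlap.

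In GFP-negative nuclei, H18 had 35.4 and 22.7 in Fast, against 80.4 and 42.7 in Fed (log2 -1.02, SE 0.42, limma adjusted p = 0.716). H5 (chr4:101312437-101314106) had 14.9 and 14.6 in Lep2, against 28.9 and 32.2 in Fast (log2 -1.0, SE 0.29, limma adjusted p = 0.722). H21 had 71.8 and 56.2 in Lep24, against 28.1 and 17.1 in Fast (log2 1.49, SE 0.47, limma adjusted p = 0.714). None of these pairs overlapped, and at H18 and H21 the higher of each pair against Fast is a library of the set of 6. In the other 10 libraries the changes were log2 -0.57 at H18 (limma adjusted p = 0.52), -1.01 at H5 (adjusted p = 0.491) and 1.32 at H21 (adjusted p = 0.024). H17, the other region called there, had 9.5 and 4.5 in Lep24, against 16.9 and 17.1 in Fast, with log2 -1.71 in the 10 libraries (limma adjusted p = 0.0217). H21 also had the smallest p for each difference between sorts, at log2 1.33 for Fast over Fed, -1.39 for Lep2 over Fast and -1.80 for Lep24 over Fast (SE 0.67 each, limma adjusted p = 1 each), and at 0.72, -0.67 and -1.5 in the 10 libraries (limma adjusted p = 0.835, 0.714 and 0.337).

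For ATAC in GFP-positive nuclei, the smallest p was at A3 for Fast against Fed (log2 -0.28), at A4 for Lep2 against Fast, with 16.4 and 8.1 in Lep2 against 9.8 and 6.1 in Fast (log2 0.52, SE 0.58), and at A2 for Lep24 against Fast, with 6 and 6.5 in Lep24 against 7.6 and 10.7 in Fast (log2 -0.47, SE 0.51). In GFP-negative nuclei it was at A2 each time, with 13.3 and 9.7 in Fed, 7 and 5.7 in Fast, 8.4 and 12.1 in Lep2, and 11.8 and 6 in Lep24. The adjusted p of these comparisons by limma ran from 0.893 to 1.

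**Figure D5:**
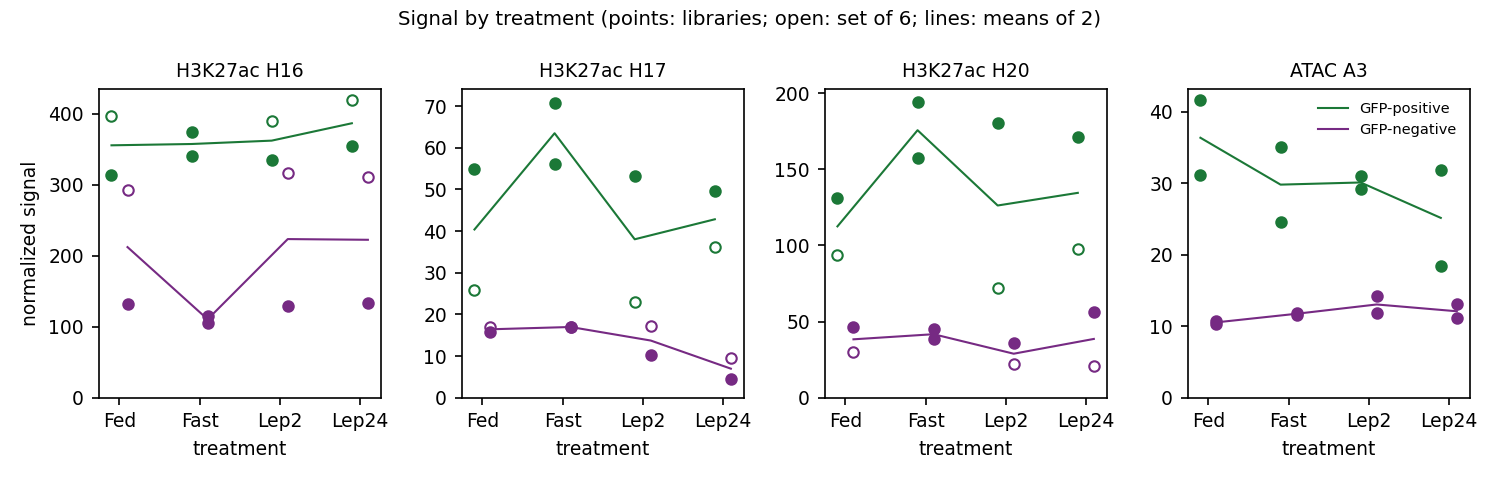
Normalized signal of H16, H17, H20 (H3K27ac) and A3 (ATAC) in Fed, Fast, Lep2 and Lep24, for GFP-positive (green) and GFP-negative (purple) nuclei. Points are libraries, open points the set of 6, and lines join the means of 2 libraries. At H17, H20 and A3 the GFP-positive points lie above the GFP-negative points in each treatment, and at H16 the GFP-negative open points of 292.5 to 317.1 lie far above the other GFP-negative points.

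The regions most like H20 and A3 elsewhere in the genome were sought by Pearson's r of log2(signal + 1) over the 16 libraries of the assay, at least 1 Mb away. For H20 they were chr1:64218466-64221684 (r = 0.975), chr3:101587029-101588008 (r = 0.97) and chr6:38953363-38957920 (r = 0.968). For A3 they were chr2:157521665-157522613 (r = 0.957), chr4:153248228-153248711 (r = 0.931) and chr17:48386177-48386648 (r = 0.928). These are descriptions over libraries that share sort, treatment and, for H3K27ac, the set of 6.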

How the data were processed

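The authors deposited normalized signal by region and library, and beside it their log2 fold changes, p-values and FDR, per the file headers. How the signal was normalized is not stated in the labels or headers. The submitters' processing notes name mm9 and, without roles, MACS2, Bowtie2 2.2.6, Bowtie 1.2, DESeq2 1.16.1 and other tools. Low signal values fell on unequal steps, so whole reads were not recovered and no count model was used. No 2 libraries held identical values. ChIP used 300000 to 540000 sorted nuclei, per the labels' protocols. The RNA and input samples were not used here.

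The 10% of regions with the lowest mean signal were not tested, a floor of 5.96 in H3K27ac and 5.44 in ATAC. Log2(signal + 1) of the 16 libraries of an assay was fitted by limma (version 3.58.1, R 4.3.3) on 8 group means, leaving 8 residual degrees of freedom before moderation, with a trended prior. The sort fits of the 10 or the 6 libraries alone, and the pair block, used treatment (or pair) and sort as additive terms, with 5 and 2 residual degrees of freedom in the sets. Treatment comparisons in the 10 libraries used group means, with 2, and this alternative was chosen after seeing the data. P-values are two-sided and Benjamini-Hochberg adjusted over all regions tested. The fit was tested on simulated data with noise drawn independently for each region and library. The simulation held no set of libraries that stood apart and no link between touching regions, so it does not speak to these. Starts were raised by 1 to count from 1. Figures used matplotlib 3.10.9. Signal was printed for each region called between the sorts, for the strongest region of each assay and for the region with the smallest p in each treatment comparison.

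The members, the naming rule and the lists were chosen with earlier results of these data known, and the set of 6 libraries came from those results. The alternatives tried were no filter, quantile normalization, a pseudocount of 0.1 or 5, replicate blocks, only the groups compared, a threshold of 0.01, library weights, the set of 6 as a term, left out or alone, and each library left out.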

Additional observations from a re-analysis of the deposited data

Results flagged for a closer look

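Of 64 groups of 8 libraries (each region in each sort) tested for a single library far from the rest, 2 stood out, and chance sets apart about 1 group in 20. H3K27ac at H5 in GFP-positive nuclei was 16 in Lep2 replicate 1, against 21.3 to 24.1 in the other 7 libraries. Lep2 replicate 1 belongs to the set of 6 libraries with more mitochondrial signal, and the part of that in this value was not tested. ATAC at A7 in GFP-negative nuclei, a region below the signal floor for testing, was 2.4 in Fast replicate 2 and 0 in the other 7 libraries.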

How the results depend on the processing

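The count of H3K27ac regions risen or fallen between the sorts, 7 with all libraries, was 13 in the 10 libraries outside the set of 6, 3 in those 6, 11 with the set as a term, 3 at a threshold of 0.01, and 5 to 10 with 1 library left out. Over all tested regions the sort fit called 9.22% with all libraries, 32.4% in the 10, 4.1% in the 6 and 26.6% with the set as a term. For ATAC the count of 4 was 2 at a threshold of 0.01 and with a pseudocount of 0.1, and 2 to 4 with 1 library left out. It was 2 without Fed, Lep2 or Lep24 GFP-positive replicate 1, Fast GFP-negative replicate 1, or either GFP-negative library of Lep2 or Lep24. Within treatments, where 0 passed, H3K27ac in Fast gave 11 with library weights, 12 with only the groups compared and 9 with the set as a term, and 0 to 3 with 1 library left out, with 3 without either Lep2 GFP-positive library. The set as a term gave 2 in Fed, 4 in Lep2 and 4 in Lep24, and group means of the 10 libraries gave 7 in Fed, 12 in Fast, 9 in Lep2 and 7 in Lep24, and 2 for Lep24 against Fast in GFP-negative nuclei. ATAC in Fed gave 1 with library weights, only the groups compared or a pseudocount of 5, and 0 to 1 with 1 library left out, and ATAC in Fast gave 0 to 1, with 1 without Fast GFP-positive replicate 1. Every other count within treatments, and every other count of the treatment comparisons and their differences between sorts, stayed at 0 under the alternatives run. For the counts within treatments under these alternatives, the shares of all tested regions called are not given here. Those counts are therefore not read as results about the window. In the 6 libraries alone the log2 difference turned to -0.09 at H22, -0.13 at H23, -0.24 at H24 and 0.20 at H9, and H9 ran from -0.26 to 0.07 with 1 library left out, positive in 5 of 16 fits. H16, H17, H18, H20, H21, A3 and A5 kept their call with any 1 library left out. The causes were not tested beyond the samples each alternative drops.

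Same-numbered libraries of the sorts deviated together in Fed, Lep2 and Lep24 H3K27ac (r = 0.452, 0.495 and 0.367) but not in Fast (r = 0.00967), and in ATAC r was 0.0375 to 0.141, so the numbers were not taken to pair the samples. With the pair of sorts as a replicate block the H3K27ac sort count was 11, with H15 (limma adjusted p = 0.000312), H22 (0.00169), H23 (0.0125) and H24 (0.00996) added, and with the replicate number as a block it was 6 within Fast and, for ATAC in Fed, 1. The shares of all tested regions called in these block fits are not given here, so these counts are not read as results about the window. Depth is unknown, so no counting error can be given, and 2 libraries per group limit what treatment changes could be seen.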
